A study of Homo sapiens with 4 samples.

Results

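The peroxiredoxins and the enzymes that work beside them were examined as 10 genes of 61498 listed genes. They were the 6 peroxiredoxin genes PRDX1 to PRDX6, catalase (CAT), the superoxide dismutases SOD1 and SOD2 and the glutathione peroxidase GPX4, chosen by name for their role in peroxide metabolism and with no value used in the rule, although earlier results of these data were known when the set was proposed. RNA was measured in K562, a human erythroleukemia cell line that makes embryonic and fetal globins, in 2 untreated libraries and in 2 libraries of cells kept for 108 h with 50 µM hemin, the iron-bearing porphyrin that induces erythroid features in this line. Both conditions used the same line, no other allele or agent was named, and nothing says whether the 2 libraries of a condition came from separate cultures, so the p-values measure only the spread between these libraries. The comparison asks which of these genes changed when K562 cells were driven toward the erythroid state.

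Hydrogen peroxide arises when superoxide is dismutated, and cells remove it by several routes that differ in place and in the source of electrons. Peroxiredoxins reduce peroxides through a reactive cysteine that is oxidized and then restored, by thioredoxin in most of the family and by glutathione in PRDX6. Catalase carries heme and splits peroxide without a thiol, while GPX4 uses selenocysteine and glutathione to reduce lipid hydroperoxides within membranes. Red cell precursors handle much iron and heme, and PRDX2, catalase and SOD1 are known as abundant proteins of mature red cells.

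The codon of the peroxidatic cysteine is what the 6 peroxiredoxins have in common, so it is shown first, in capitals, with 15 coding bases on each side. The windows were read 5′ to 3′ on the coding strand from the MANE transcripts of GENCODE 44 on GRCh38.
PRDX1: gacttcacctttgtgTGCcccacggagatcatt
PRDX2: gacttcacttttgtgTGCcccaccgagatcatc
PRDX3: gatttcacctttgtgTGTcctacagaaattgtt
PRDX4: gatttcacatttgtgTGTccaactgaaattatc
PRDX5: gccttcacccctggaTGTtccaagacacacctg
PRDX6: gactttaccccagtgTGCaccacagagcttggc
Of the 33 bases, PRDX2 shared 30 with PRDX1, PRDX3 shared 26, PRDX4 shared 25, PRDX6 shared 22 and PRDX5 shared 18. The cysteine was codon 52 in PRDX1 (chr1:45515758-45515760, minus strand, exon 3) and codon 51 in PRDX2 (chr19:12801020-12801022, minus strand, exon 3). It was codon 108 in PRDX3 (chr10:119173860-119173862, minus strand, exon 4) and codon 124 in PRDX4 (chrX:23675000-23675002, plus strand, exon 3), both of which carry a leader that directs the protein to mitochondria or to the endoplasmic reticulum. In PRDX5 it was codon 100 (chr11:64319860-64319862, plus strand, exon 2) and in PRDX6 codon 47 (chr1:173481369-173481371, plus strand, exon 2). GPX4 holds in the place of a reactive cysteine an in-frame TGA, which is read as selenocysteine and was codon 73 (chr19:1105403-1105405, plus strand, exon 3).
GPX4: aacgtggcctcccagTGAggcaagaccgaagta

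The likeness of these windows bears on how reads of 50 bases could be assigned. No stretch of 50 bases was shared between any 2 of the 10 genes on either strand, and the posterior standard deviation that describes the division of shared reads was at most 0.52% of a gene's count. The values of the 6 peroxiredoxins could therefore be told from each other.

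The 4 libraries held 7455447 to 8241534 summed expected counts, of which 12.8% to 13.6% lay on mitochondrial genes. All 11 erythroid markers of K562 were detected with at least 57 counts. Their summed level was 6092 to 6262 TPM (a level per transcript length, scaled to the same total in each library) in untreated cells and 7521 to 8029 TPM after hemin, with 4 of the 11 higher by the test described below. Of 9 markers of other blood cells, 4 were at 0 in every library and none exceeded 14 counts, with summed levels of 3.26 to 3.96 TPM in untreated cells and 0.54 to 2.43 TPM after hemin. The part of the erythroid markers' rise in the values of the 10 enzymes was not tested, and in RNA of whole cultures a change per cell and a change in the share of cells of one kind cannot be told apart.

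All 10 genes were well measured, with 213 to 2734 expected counts in each library. PRDX1, a cytosolic peroxiredoxin, had the highest level in untreated cells at 413 ± 10.9 TPM (mean ± SD, n = 2). PRDX6, the family member that uses 1 cysteine, followed at 366 ± 0.021 TPM. SOD1, the cytosolic copper and zinc enzyme that turns superoxide into peroxide, stood at 290 ± 8.49 TPM and GPX4 at 240 ± 7.69 TPM. PRDX5, found in several compartments, and cytosolic PRDX2 were close to each other at 209 ± 4.24 and 193 ± 6.72 TPM.

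The enzymes of organelles formed the lower end of the range. Mitochondrial PRDX3 had 82.4 ± 6.41 TPM, mitochondrial SOD2 had 55.4 ± 4.91 TPM and PRDX4, which is retained in the endoplasmic reticulum or secreted, had 44.7 ± 2.91 TPM. Peroxisomal catalase was the lowest at 31.7 ± 2.36 TPM, so that PRDX1 RNA exceeded CAT RNA 13.1 ± 1.32-fold in untreated and 13.6 ± 0.587-fold in hemin-treated cells.

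The order of the 10 levels was the same in both conditions. No neighbours in that order overlapped in untreated cells, whereas after hemin the libraries overlapped for SOD1 with GPX4 and for PRDX5 with PRDX2. The deposited effective lengths lay 48.40 to 48.44 bases below the transcript lengths. With effective lengths for fragments of 250 bases instead, close to the fragment length given in the study's methods, GPX4 stood above SOD1 after hemin, at 64.9% against 60.1% of the PRDX1 level, PRDX4 and SOD2 overlapped in both conditions with PRDX4 first after hemin, and PRDX5 and PRDX2 did not overlap after hemin. The other ranks stayed as they were.

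**Figure D1:**
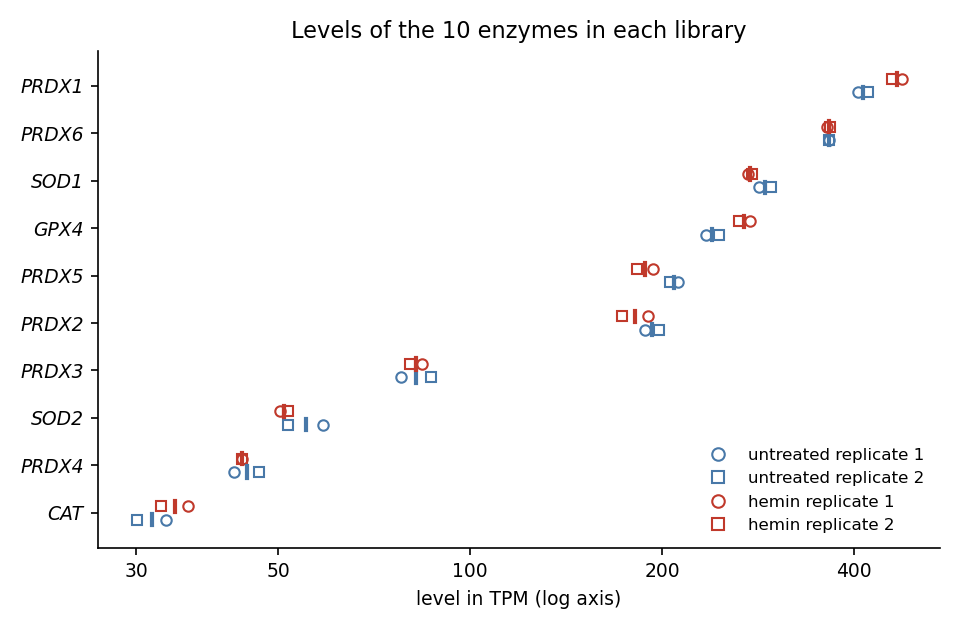
Level of each of the 10 genes in TPM (log axis) in the 2 untreated libraries (blue) and the 2 hemin libraries (red), with circles for replicate 1, squares for replicate 2 and a short bar for the mean of each condition. PRDX1 at the top and GPX4 lie higher in both hemin libraries, from 458 to 475 TPM and from 264 to 275 TPM, than in both untreated libraries.

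The change after hemin was tested with edgeR's quasi-likelihood test on the rounded expected counts, with p-values adjusted by the Benjamini-Hochberg method over all 14458 genes tested and a threshold of 0.05. All 10 genes passed the filter on low counts, and 2 of them, PRDX1 and GPX4, passed the threshold, both upward, by 15.3% and 14.8%. Of all genes tested, 14.1% were called, 7% upward (1012 genes) and 7.14% downward (1033 genes), and of the 6021 genes whose expression lay within the range of the 10 genes 21.5% were called. The count of 2 in 10 is near that last share. Scaling by library size only gave 729 genes upward and 1358 downward, and a positive log2 fold change in 3 of the 10 genes in place of 7. No member passed the threshold downward by edgeR, where 1 had an unadjusted p under 0.05, or by DESeq2, where 0 had one.

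PRDX1, the most abundant of the family, had 2060 and 2060 expected counts in the untreated libraries and 2318 and 2459 in the hemin libraries. Scaled to library size, these were 260 and 275 CPM (scaled counts of a gene per unit of library size) in untreated cells and 313 and 305 CPM after hemin. Both hemin libraries lay above both untreated libraries, and the same held for the level per length, at 405 and 421 TPM against 475 and 458 TPM. The log2 fold change was 0.21 ± 0.044 (SE, n = 2 per condition; edgeR adjusted p = 0.0163), an increase of 15.3% with a 95% interval of 7.57% to 23.6%.

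GPX4, the selenoenzyme that reduces lipid hydroperoxides, had 872 and 852 expected counts in untreated cells and 967 and 1023 after hemin. Its levels per length were 234 and 245 TPM in the untreated libraries against 275 and 264 TPM in the hemin libraries, again without overlap. The log2 fold change was 0.20 ± 0.050 (SE, n = 2 per condition; edgeR adjusted p = 0.0292), which is 14.8% with a 95% interval of 6.18% to 24.1%.

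These calls rested on few libraries. Leaving out 1 library at a time kept both directions, with log2 fold changes of 0.17 to 0.25 for PRDX1 and 0.18 to 0.22 for GPX4. The PRDX1 call was lost without untreated replicate 1 (edgeR adjusted p = 0.0953) and kept without each of the other 3 libraries. The GPX4 call was lost without untreated replicate 1 (edgeR adjusted p = 0.135), untreated replicate 2 (0.0700), hemin replicate 1 (0.0967) or hemin replicate 2 (0.0552), and also with DESeq2 (adjusted p = 0.0942) or with scaling by library size only (edgeR adjusted p = 0.0617).

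The remaining 8 genes did not pass the threshold, with adjusted p-values of 0.164 to 0.957. Their separate 95% intervals lay between -15.1% and 18.5% in this fit. Each interval holds for a single gene and not for the 8 jointly, and other scalings shift it.

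PRDX5 came nearest to a decrease. It had 116.2 and 116.6 CPM in untreated cells and 110.0 and 104.5 CPM after hemin, so that the conditions did not overlap. Its log2 fold change was -0.12 ± 0.052 (SE, n = 2 per condition), with an unadjusted edgeR p of 0.0473 in the fit across all genes and an adjusted p of 0.164.

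PRDX2, the peroxiredoxin best known from red cells, had levels of 188 and 198 TPM in untreated cells and 190 and 173 TPM after hemin. The conditions overlapped, and the log2 fold change of -0.07 ± 0.059 was within the spread (edgeR adjusted p = 0.499, n = 2 per condition). The interval of the change ran from -12.9% to 4.59%. SOD1 had 284 and 296 TPM in untreated cells and 273 and 277 TPM after hemin, lower in both hemin libraries, with a log2 fold change of -0.06 ± 0.048 (edgeR adjusted p = 0.457, n = 2 per condition). The third enzyme abundant in red cells, catalase, had 33.4 and 30.02 TPM against 36.1 and 32.8 TPM, which overlapped, and an interval from -7.25% to 18.5%.

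PRDX6 was the steadiest of the 10 genes over the 4 libraries, at 366 and 366 TPM in untreated cells and 363 and 367 TPM after hemin. On the CPM scale its hemin libraries lay above the untreated libraries, at 330 and 339 against 327 and 328 CPM, and the log2 fold change was 0.03 ± 0.040 (edgeR adjusted p = 0.693, n = 2 per condition). Mitochondrial PRDX3 had 77.9 and 86.9 TPM in untreated cells and 84.0 and 80.4 TPM after hemin. PRDX4 had 42.6 and 46.8 TPM against 43.9 and 43.9 TPM. In both genes the hemin libraries fell between the untreated ones, with log2 fold changes of 0.03 and 0.01. By CPM the conditions did not overlap in 5 of the 10 genes, with hemin above in PRDX1, PRDX6 and GPX4 and below in PRDX5 and SOD1. Among all genes tested they did not overlap in 57.3%, with hemin above in 28.1% and below in 29.3%.

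**Figure D2:**
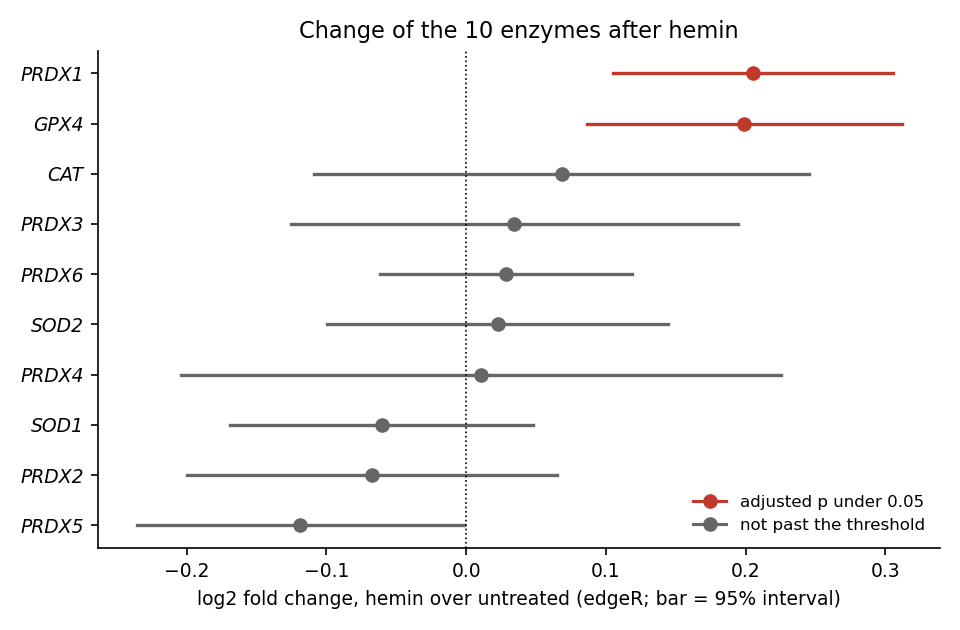
log2 fold change (hemin over untreated, edgeR) of each of the 10 genes as points, with bars for the 95% interval and red for an adjusted p under 0.05. PRDX1 at 0.21 and GPX4 at 0.20 are the red points, and the intervals of the other genes reach or nearly reach 0.

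SOD2, which turns superoxide into peroxide in mitochondria, differed between the scales. Its scaled counts were 93.2 and 96.0 CPM in untreated cells and 94.3 and 97.8 CPM after hemin, which overlapped. Its level per length was 58.9 and 51.9 TPM in untreated cells and 50.3 and 51.8 TPM after hemin, with both hemin libraries lower. The mean transcript length of SOD2 was 2280 bases in untreated replicate 1 and 2608 to 2621 bases in the other 3 libraries, so that 1 library stood apart in both length and TPM. The log2 fold change of the counts was 0.02 ± 0.054 (edgeR adjusted p = 0.829, n = 2 per condition). With 15 transcripts listed, SOD2 had the most among the 10 genes.

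**Figure D3:**
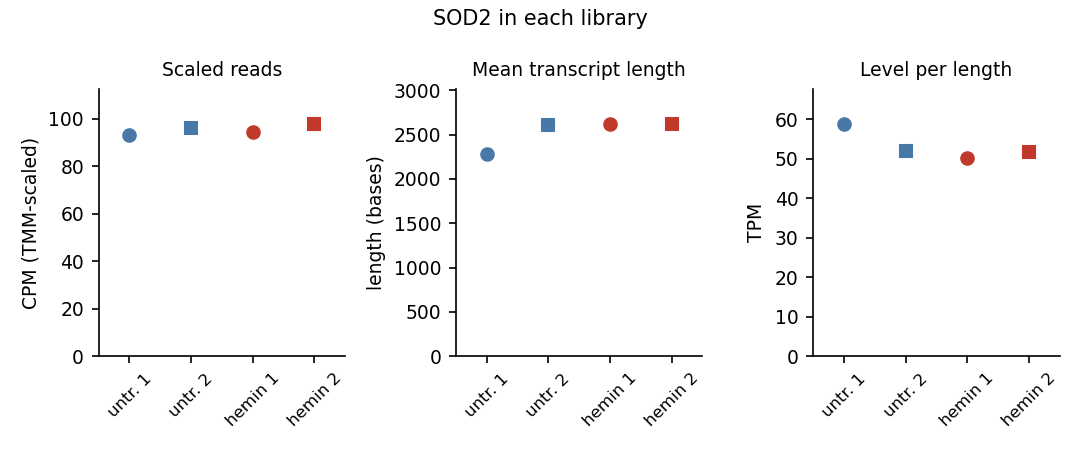
SOD2 in each library (blue, untreated; red, hemin) as scaled counts in CPM, as mean transcript length in bases and as level in TPM, all axes from 0. The first untreated library has a length of 2280 bases and a level of 58.9 TPM, apart from the other 3 libraries, while its 93.2 CPM lies beside theirs.

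The make-up of the family's RNA was then compared. The 6 peroxiredoxins summed to 1291 and 1323 TPM in untreated cells and 1349 and 1305 TPM after hemin, which overlapped. PRDX1 made up 31.4% and 31.8% of this sum in untreated cells and 35.2% and 35.1% after hemin. PRDX5 made up 16.4% and 15.6% against 14.3% and 14.0%, and PRDX2 made up 14.6% and 14.9% against 14.1% and 13.2%. For these 3 genes the conditions did not overlap, while those of PRDX3, PRDX4 and PRDX6 did. Absence of overlap is common with 2 libraries per condition, and by CPM it held for 57.3% of all genes tested. The level of PRDX1 over that of PRDX2 was 2.16 and 2.13 in untreated cells and 2.49 and 2.65 after hemin. These shares depend on each other and on the 2 libraries of each condition, and they were not tested.

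**Figure D4:**
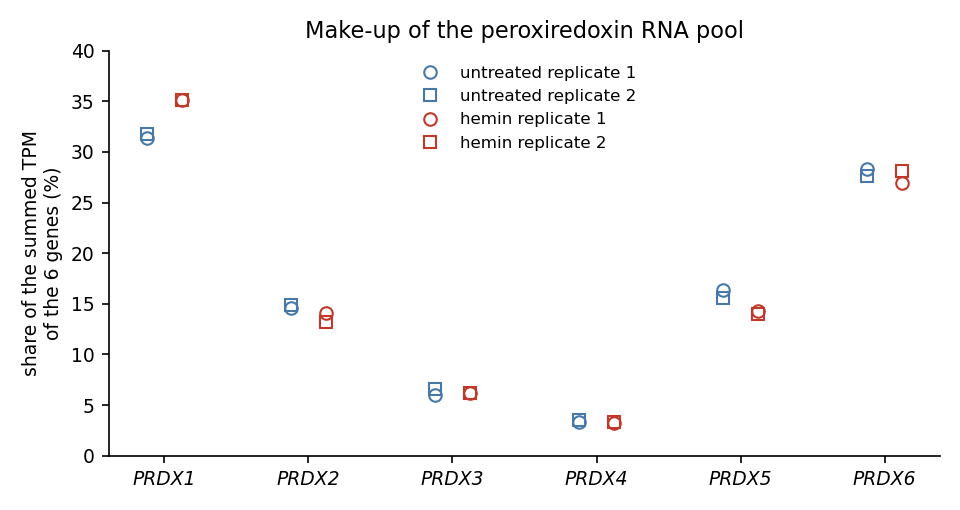
Share of each peroxiredoxin in the summed TPM of the 6 genes, in percent, for the 2 untreated (blue) and 2 hemin (red) libraries, with circles for replicate 1 and squares for replicate 2. The PRDX1 share moves from 31.6% to 35.1% in the mean and the PRDX5 share from 16.0% to 14.2%.

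PRDX1 lies on chr1:45510914-45542732 (GRCh38, minus strand), where its end overlaps MMACHC, a gene of cobalamin metabolism on the plus strand. Of the 1772 distinct stretches of 50 bases in PRDX1 transcripts, 454 were shared with MMACHC. The counting options listed in the study's methods hold no strand setting, and the methods do not otherwise say whether strand was used. MMACHC itself had 189 and 177 expected counts in untreated cells and 210 and 244 after hemin, with a log2 fold change of 0.30 ± 0.092 (edgeR adjusted p = 0.0574, n = 2 per condition). With the counts of both genes added together, an alternative chosen after the values were seen, the log2 fold change of PRDX1 was 0.21 ± 0.043 (edgeR adjusted p = 0.0120, n = 2 per condition). The log2 fold change of MMACHC was the larger, so adding its counts could not weaken that of PRDX1. Nor can the sum show from which gene the shared reads came. PRDX2 shared 9.42% of its stretches, most of them with an antisense transcript that had 38 to 47 counts in each library. SOD2 shared 13.4% of its 18414 stretches with 268 other genes, most often with SOD2-OT1, which had at most 6.21 counts in a library. GPX4 shared none.

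Pseudogenes of the family took few reads. Of the 14 annotated pseudogenes of the 10 genes, 6 had any count, and 5 of these, namely PRDX1P1, PRDX2P1, PRDX2P4, PRDX3P1 and PRDX3P2, had at most 5.04 expected counts in a library. SOD1P3 had 27.0, 26.0, 32.0 and 37.0 counts in the 2 untreated and the 2 hemin libraries, with a log2 fold change of 0.37 ± 0.27 (edgeR adjusted p = 0.405, n = 2 per condition).

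The promoter of GPX4 is shown because it belongs to 1 of the 2 genes that passed the test and was present among the RefSeq windows used, which held 7 of the 10 genes. PRDX1, PRDX6 and SOD1 had none. The bases below are the 250 before a GPX4 start, chr19:1103744-1103993 on GRCh38.p14, plus strand, and capitals mark CCAAT on either strand.
GPX4 promoter: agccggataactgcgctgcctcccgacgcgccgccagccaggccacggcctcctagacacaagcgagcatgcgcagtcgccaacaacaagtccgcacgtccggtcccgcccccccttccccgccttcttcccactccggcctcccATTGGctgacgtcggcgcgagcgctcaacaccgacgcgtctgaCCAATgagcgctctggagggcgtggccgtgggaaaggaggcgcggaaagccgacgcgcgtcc
The 2 matches begin 105 and 62 bases before the start, and CCAAT on either strand was present in 34.6% of 35116 windows of 300 bases. It was not particular to GPX4, since the CAT window had 5 matches and SOD2 windows had 3 and 1, and neither gene passed the test. The windows of PRDX2, PRDX3, PRDX4 and PRDX5 had none. The antioxidant response motif TGACNNNGC was in none of the 13 windows of the 7 genes and in 13.3% of all windows. The GATA core GATAA, on either strand, had 1 match among the 13 windows, in the GPX4 window shown, and was in 22.7% of all windows. These are matches of letters and say nothing of binding.

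The genes whose profile over the 4 libraries was most like that of PRDX1, the member with the smallest p, were JUND, EPC1 and WDR3. Their centred log2 CPM profiles lay at Euclidean distances of 0.00995, 0.0116 and 0.0145 from that of PRDX1 over 4 libraries. JUND and WDR3 passed the threshold (edgeR adjusted p = 0.0175 and 0.0349) and EPC1 did not (edgeR adjusted p = 0.149). The likeness is a description over few libraries, and shared regulation was not tested.

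The partner genes, which supply electrons and selenocysteine to the enzymes or give rise to their substrates, held calls in both directions. Of 54 genes in 5 lists, 43 were tested, and 4 were higher and 4 lower after hemin. These 8 were 18.6% of the partner genes tested, near the 14.1% called among all genes tested and the 21.5% called among genes in the expression range of the 10 enzymes. The median log2 fold change of the 43 was 0.04, against 0.03 for the 10 enzymes and -0.0048 for all genes tested.

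In the thioredoxin system, which reduces most peroxiredoxins, all 12 genes were tested. Thioredoxin itself (TXN) did not pass the test, with 212 and 204 TPM in untreated cells and 224 and 209 TPM after hemin. Its level was the highest over both conditions together, although TXNIP was higher in untreated cells. TXNRD1, the cytosolic selenoenzyme that reduces thioredoxin, was higher at 72.7 and 65.9 TPM against 58.4 and 59.6 TPM, with a log2 fold change of 0.27 ± 0.053 (edgeR adjusted p = 0.0101, n = 2 per condition). TXNL1, a thioredoxin-like protein of the proteasome, rose by 27.3% (log2 fold change 0.35 ± 0.055). TXNIP, which binds thioredoxin and holds it inactive, fell from 268 and 270 TPM to 148 and 146 TPM, a log2 fold change of -0.85 ± 0.042, and the stress-induced sestrin SESN3 fell with a log2 fold change of -0.67 ± 0.11.

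The glutathione system held the partner gene with the greatest increase. GCLM, the modifier subunit of the enzyme that begins glutathione synthesis, had 502 and 545 expected counts in untreated cells and 786 and 929 after hemin, a log2 fold change of 0.70 ± 0.075 (edgeR adjusted p = 0.000667, n = 2 per condition). Its level per length rose less, from 31.92 and 39.55 TPM in untreated cells to 44.49 and 52.14 TPM after hemin. The mean transcript length of GCLM was 2851 and 2594 bases in untreated cells and 3320 and 3051 bases after hemin. Of 14 genes in the list 11 were tested, and GCLM was the 1 gene that passed. GLRX5, a mitochondrial glutaredoxin of iron-sulfur cluster assembly and the gene of highest level in the list, had a log2 fold change of 0.04 ± 0.058. No gene of the list was lower by edgeR, where 0 had an unadjusted p under 0.05, or by DESeq2.

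GPX4 depends on the machinery that inserts selenocysteine. None of its 6 genes passed the test in either direction by edgeR, where 0 had an unadjusted p under 0.05 upward and 1 downward, or by DESeq2, where 0 had one. Without hemin replicate 1, SEPHS2, which makes the selenium donor, passed downward (edgeR adjusted p = 0.0484). SECISBP2 binds the signal in selenoprotein mRNAs and had the highest level of the list over both conditions together. In untreated cells it stood at 36.1 TPM, below SEPHS1 and SEPHS2 at 37.5 TPM each. The log2 fold change of SECISBP2 was 0.09 ± 0.069 (edgeR adjusted p = 0.447, n = 2 per condition).

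Both reducing systems draw on NADPH. Of 9 genes that supply it, PGD of the pentose phosphate pathway was higher, at 520 and 477 TPM against 432 and 444 TPM, with a log2 fold change of 0.24 ± 0.045. The isocitrate dehydrogenases were lower, mitochondrial IDH2 from 30.8 and 28.7 TPM to 17.3 and 18.9 TPM with a log2 fold change of -0.64 ± 0.092 and cytosolic IDH1 from 149 and 150 TPM to 130 and 131 TPM with -0.18 ± 0.042. The IDH1 call was lost when any 1 library was left out (edgeR adjusted p = 0.0636 to 0.103) and with DESeq2 (adjusted p = 0.0954), the PGD call without untreated replicate 2 (0.0505) and the TXNRD1 call without untreated replicate 1 (0.0658).

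Among 13 genes that make superoxide or peroxide or load copper into SOD1, 5 were expressed enough to be tested and none passed by edgeR, where 0 had an unadjusted p under 0.05 upward and 3 downward, or by DESeq2, where 0 had one. ERO1A and ERO1B, oxidases of the endoplasmic reticulum that make peroxide, passed downward in 1 alternative each, ERO1A with scaling by library size only (edgeR adjusted p = 0.0442) and ERO1B with a minimum of 20 counts in all libraries of either condition (edgeR adjusted p = 0.0497). CYBA, the small subunit of the phagocyte oxidase, had the highest level of these and a log2 fold change of -0.18 ± 0.070 (edgeR adjusted p = 0.117, n = 2 per condition).

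**Figure D5:**
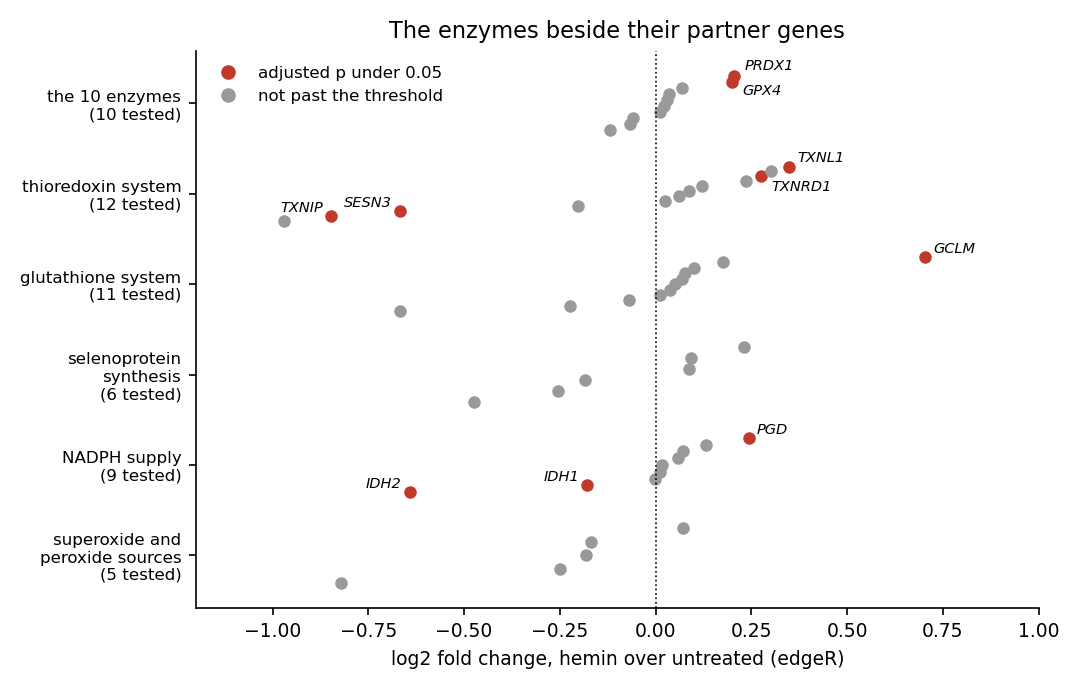
log2 fold change (hemin over untreated, edgeR) of the tested genes, 1 row for the 10 enzymes and 1 for each partner list, with red points and names for an adjusted p under 0.05. PRDX1 and GPX4 lie near 0.2, between the other enzymes and GCLM at 0.70, and TXNIP at -0.85 is the lowest called gene.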

How the data were processed

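K562 libraries from poly(A) RNA, 2 untreated and 2 with hemin, were analysed. The authors trimmed 50-base reads with Trimmomatic 0.39 and quantified them with RSEM 1.3.1 and STAR 2.7.5c on Ensembl 106. Values deposited per gene were expected counts (estimated by RSEM, not normalized), TPM (scaled by effective length), and posterior mean counts with their SD and posterior mean TPM, which describe how shared reads were divided. The deposited FPKM were not used.

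Expected counts were rounded, filtered by filterByExpr, TMM-scaled and tested with edgeR 4.0.16 (quasi-likelihood, Benjamini-Hochberg, threshold 0.05) in R 4.3.3. Standard errors and 95% intervals were derived from that test. Libraries of a condition differed by a mean chi-square per gene of 1.80 (untreated) and 2.21 (hemin), against 1 for counting noise. In counts simulated with the same dispersion for all genes, 167 of 200 genes changed by 0.5 (log2) among 14198 were recovered, with 10 false calls. The changed genes were drawn from those with higher counts. Dispersions that differ by gene and changes near 0.2, as in PRDX1 and GPX4, were not simulated, so these figures do not give the error of those calls. A count of 0 allows up to 3 counts, for counting error only.

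The 10 genes, partner lists and markers were chosen with earlier results of these data known. Named were all 10 genes, up to 4 called genes per direction and the highest gene of each partner list, the 3 nearest profiles, and pseudogenes with counts. The highest gene was taken by TPM over both conditions together. MMACHC, SOD2-OT1, SEPHS2, ERO1A, ERO1B, GPX1, GPX3 and GPX8 were named after their values were seen. Coordinates came from GENCODE 44, where SOD2 has another identifier and all 15 of its transcripts matched. The fits were repeated with RLE factors, unscaled library sizes, DESeq2 1.42.0, no filter, a minimum of 20 counts in all libraries of either condition, replicate number as a block, limma 3.58.1 on log2(TPM + 1) and log2(TPM + 0.1), posterior means, and each library left out, the lone library being assumed to vary like the rest. Added after the values were seen were PRDX1 with MMACHC and effective lengths for 250-base fragments.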

Additional observations from a re-analysis of the deposited data

How the results depend on the processing

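Called genes numbered 597 higher and 483 lower with DESeq2, and 469 to 934 higher and 512 to 884 lower with 1 library left out. By limma on TPM none was higher with either pseudocount, and 0 (pseudocount 1) and 2 (pseudocount 0.1) were lower. Of the 10 enzymes, 1 was higher by library size only or by DESeq2, 0 by limma with either pseudocount, and 0 to 1 with 1 library left out. The partner genes had 0 higher and 0 lower calls by limma with either pseudocount, and 7 lower with a minimum of 20 counts in all libraries of either condition. With 1 library left out they had 3 to 4 higher and 3 to 4 lower. The limma fits call almost nothing across all genes, so that they say little about single members. By limma on TPM the log2 fold change of GCLM was 0.43 (pseudocount 1) and 0.44 (pseudocount 0.1), against 0.70 by counts.

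Scaling by library size only moved the median log2 fold change of all genes from -0.0048 to -0.04, and with it turned PRDX3 (-0.0040), PRDX4 (-0.028), PRDX6 (-0.010), SOD2 (-0.016) and GLRX5 (-0.0025). Limma turned PRDX3 (-0.0015 with either pseudocount), PRDX4 (-0.0239 and -0.0243), PRDX6 (-0.0032 with either) and SOD2 (-0.1133 and -0.1152). With 1 library left out, PRDX3 ranged from -0.0634 (without untreated replicate 1) to 0.1384, PRDX4 from -0.0801 (without untreated replicate 1) to 0.1066, SOD2 from -0.0051 (without hemin replicate 2) to 0.0555 and GLRX5 from -0.0087 (without hemin replicate 1) to 0.089. None of these 5 genes was called in any fit. PRDX1 kept its direction in 14 alternatives and its call in 11, GPX4 its direction in 14 and its call in 6. These 14 include the fit with MMACHC counts added to PRDX1, which was chosen after the values were seen. Both calls were kept in that fit, but it left the GPX4 counts unchanged and could not weaken PRDX1.

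Deviations of same-numbered libraries from their condition means correlated at 0.0047 across genes. With 2 libraries per condition these deviations mirror each other, so this is a single comparison and does not settle whether the libraries were paired. A replicate block gave 855 higher and 886 lower genes, 2 higher enzymes (edgeR adjusted p = 0.0325 for PRDX1 and 0.0483 for GPX4) and 4 higher and 4 lower partner genes.

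Posterior mean TPM moved 15 of 20 levels by more than 1 SD but no peroxiredoxin share by more than 0.259 percentage points. PRDX4, with 213 to 234 counts, had the widest interval of the 10 enzymes, from -13.2% to 16.9%.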

Other observations

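GPX1, the glutathione peroxidase of the cytosol, was listed with 1.20, 3.75, 2.64 and 0 expected counts in the 2 untreated and the 2 hemin libraries, at or near the limit of 3 counts that a count of 0 allows, and was not tested. GPX3 had 5.48 ± 0.156 TPM in untreated cells and 4.17 ± 0.445 TPM after hemin (SD, n = 2), and GPX8 had 10.2 ± 4.52 and 11.8 ± 1.98 TPM. GPX1 is known as a widely expressed gene, and why so few reads were assigned to it in all 4 libraries was not tested, so its level is uncertain and GPX4 was not ranked against it.

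The mean transcript length of CAT was 1761 bases in hemin replicate 1 and 1940 to 1961 bases in the other 3 libraries. Its expected counts were 358 and 308 in untreated cells and 334 and 368 after hemin.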
